A study of Mus musculus with 11 samples.

Results

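Broad open regions of the mouse esophagus are described here: stretches of accessible chromatin at least 3000 bp wide after the open intervals of all 11 libraries were merged. Intervals on chromosomes 1 to 19 and X that shared at least 1 bp were joined into 124941 regions with a median width of 693 bp, and 294 of these reached 3000 bp. These members were chosen by measured width, so their widths are a description and carry no test. The assay was ATAC-seq, where Tn5 transposase cuts accessible DNA and tags it for sequencing, and MACS2 called the intervals. A library's value for a region is its covered length, the number of bp of the region inside that library's own intervals, in GRCm38.

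The wild-type group (WT, 3 libraries) came from CD1 mice, with cells sorted for low EpCAM, an epithelial adhesion protein. The SmoM2 group (3 libraries, CD1) carried Krt5-SmoM2 and was sorted for high EpCAM. The SmoM2 allele encodes constitutively active Smoothened, which transduces Hedgehog signals, and Krt5 drives genes in basal epithelial cells. The SmoM2-Sox9cKO group (3 libraries, high EpCAM) carried Krt5-SmoM2 with Sox9 fl/fl, that is, a floxed gene for the transcription factor Sox9; its labels name no strain. The Embryo group (2 libraries) was Krt8YFP esophagus at embryonic day 13, sorted on YFP. Genotype and EpCAM gate cannot be told apart between WT and the other adult groups. The 9 libraries not labelled embryonic are called adult here, although their labels give no age. Since no label ties a replicate to an animal, a p-value covers the spread among libraries, which may be technical. In these bulk libraries, fewer cells with an open region and less signal per cell cannot be told apart.

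Most accessible sites are narrow, because a nucleosome-free enhancer or promoter exposes only a short stretch of DNA. Wide accessible stretches are known at promoters rich in CG dinucleotides, which stay unmethylated. They are also known at genes read by RNA polymerases I and III, such as ribosomal and transfer RNA genes, which are transcribed intensely.

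The regions fell into 4 positions. A protein-coding start listed in the RefSeq promoter table lay in 113 regions (38.4%). Another 37 (12.6%) held an end of a protein-coding gene but no listed start, 53 (18%) lay inside a gene, and 91 (31.0%) touched no protein-coding gene. This last position is called no gene below, although some of these regions hold rRNA, tRNA, miRNA or lncRNA genes. Widths at the members just inside the limit were 3000 bp at Crim1, 3002 bp at Ubald1, 3003 bp at Tnfsf10, 3004 bp at Gng5 and Spata1, and 3005 bp at Kmt2c. Just outside lay regions at Fat4 and Prrc2b (2992 bp each), an X region of 2997 bp, and regions at Foxo3 and Baz2a (2998 bp each). Only 152 of the 294 held a single interval of 3000 bp or more in any library; the other 142 reached that width by joining intervals of different libraries.

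Promoters are shown for regions on which the results below turn: the widest region at a start (Smarca2), the regions that were lower (Tril, Gng5) and higher (Slc16a11, Phf21a) in SmoM2, and the Hedgehog co-receptor Gas1. Each runs from 250 bases before to 50 after a start, 5′ to 3′, from RefSeq on GRCm38.p6. Capitals mark 4 motifs on either strand. These are GGGCGG, known for Sp1 binding, then CCAAT, known for NF-Y, then TATAAA of TATA boxes, and TGACTCA, known for AP-1.
Smarca2, chr19:26604910-26605209, plus strand: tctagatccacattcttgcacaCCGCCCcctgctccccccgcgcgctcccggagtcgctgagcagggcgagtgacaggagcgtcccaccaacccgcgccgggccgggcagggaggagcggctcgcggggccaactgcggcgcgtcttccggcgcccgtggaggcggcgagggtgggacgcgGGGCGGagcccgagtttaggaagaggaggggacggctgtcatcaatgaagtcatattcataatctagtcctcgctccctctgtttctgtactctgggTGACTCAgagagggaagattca
Tril, chr6:53820776-53821075, minus strand: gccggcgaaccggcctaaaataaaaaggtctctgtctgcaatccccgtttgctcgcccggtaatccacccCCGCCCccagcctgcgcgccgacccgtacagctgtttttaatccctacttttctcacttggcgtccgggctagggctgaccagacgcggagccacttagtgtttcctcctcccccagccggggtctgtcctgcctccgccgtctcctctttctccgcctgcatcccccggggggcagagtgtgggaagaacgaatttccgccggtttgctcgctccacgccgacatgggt
Gng5, chr3:146499586-146499885, plus strand: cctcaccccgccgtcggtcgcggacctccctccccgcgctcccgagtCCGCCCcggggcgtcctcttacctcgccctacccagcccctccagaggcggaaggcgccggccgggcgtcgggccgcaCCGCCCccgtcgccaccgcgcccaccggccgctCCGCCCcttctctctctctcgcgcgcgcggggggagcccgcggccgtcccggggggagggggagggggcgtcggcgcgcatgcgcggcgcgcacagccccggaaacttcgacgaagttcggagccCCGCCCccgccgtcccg
Slc16a11, chr11:70213660-70213959, plus strand: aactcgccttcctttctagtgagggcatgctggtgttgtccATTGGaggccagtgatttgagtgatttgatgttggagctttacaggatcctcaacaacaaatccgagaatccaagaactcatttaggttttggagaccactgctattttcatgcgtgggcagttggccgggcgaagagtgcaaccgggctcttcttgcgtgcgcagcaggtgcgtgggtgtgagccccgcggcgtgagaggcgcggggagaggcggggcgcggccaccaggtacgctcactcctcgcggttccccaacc
Phf21a, chr2:92185233-92185532, plus strand: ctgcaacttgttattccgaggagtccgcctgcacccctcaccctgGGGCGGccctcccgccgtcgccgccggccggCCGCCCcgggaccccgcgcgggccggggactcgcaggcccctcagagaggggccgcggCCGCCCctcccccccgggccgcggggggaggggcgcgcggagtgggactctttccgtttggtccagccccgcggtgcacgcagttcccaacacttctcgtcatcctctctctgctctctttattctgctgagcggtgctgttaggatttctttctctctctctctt
Gas1, chr13:60177486-60177785, minus strand: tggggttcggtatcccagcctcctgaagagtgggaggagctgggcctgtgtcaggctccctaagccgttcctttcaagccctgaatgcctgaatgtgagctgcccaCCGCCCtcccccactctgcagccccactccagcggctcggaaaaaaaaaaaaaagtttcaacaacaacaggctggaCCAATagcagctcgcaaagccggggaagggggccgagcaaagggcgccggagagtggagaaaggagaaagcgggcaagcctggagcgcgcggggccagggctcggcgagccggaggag
The Smarca2 promoter held 2 GGGCGG matches and 1 TGACTCA. Tril held 1 GGGCGG, Gng5 4 and Phf21a 3, Slc16a11 held 1 CCAAT, and Gas1 held 1 of each of these 2 motifs. GC content was 65.7% at Smarca2, 62.7% at Tril, 80.7% at Gng5, 58.0% at Slc16a11, 70.0% at Phf21a and 62.3% at Gas1.

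Promoters in the broad regions were rich in GC. The 165 promoters of 129 genes whose start lay in one had a median GC content of 64.7%, against 56.7% for all 21045 promoters of protein-coding genes in the table. Their median ratio of observed to expected CG dinucleotides was 0.818 against 0.574, and 77.6% exceeded 0.6 against 48.1% of all. GGGCGG was found in 72.7% against 46.7%, CCAAT in 26.1% against 38.5%, TATAAA in 4.24% against 12.7%, and TGACTCA in 4.85% against 4.69%. Promoters in regions between 2 and 3 kb wide had a median GC content of 65.0%, a CG ratio of 0.804 and GGGCGG in 72.9%, with CCAAT in 33.2%, TATAAA in 5.54% and TGACTCA in 3.28%. These shares are descriptions of fixed windows, not of bound sites.

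Some regions held the starts of more than 1 gene. Of the 113 regions with a start, 16 held starts of more than 1 gene, and in 15 of them these lay on both strands. In 10 of those 15 the closest starts were head to head, 13 to 1775 bp apart. Examples were Itgb1bp1 and Cpsf3 (13 bp apart), Fbxl12 and Ubl5 (36 bp), Spata1 and Gng5 (43 bp), Cpeb3 and Marchf5 (69 bp), and Chchd4 and Tmem43 (284 bp). Starts of 2 genes on both strands lay in 13.3% of the broad regions with a start, 9.52% of start regions between 2 and 3 kb wide, 8.85% of those between 1 and 2 kb and 1.72% of those under 1000 bp.

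Width and position went together. Regions with a start had a median width of 3164 bp and ran to 4225 bp, at Smarca2, which encodes an ATPase of the SWI/SNF chromatin remodeler. Next among them came Clpx (4194 bp), Mxi1 (4193 bp), a Myc antagonist gene, Mllt3 (4108 bp), a transcription elongation factor gene, and Zfp827 (4054 bp). Regions at gene ends ran to 3946 bp. All 31 regions of 5000 bp or more lay elsewhere: 9 inside genes and 22 at no protein-coding gene. The midpoint lay within 1 kb of a gene end in 31.3% of the broad regions, against 12% of all regions but 42.7% of those between 2 and 3 kb wide. Chromosome X held 6.12% of the broad regions and 2.54% of all regions. Many of those on X were neighbors: 8 lay in a stretch of 134.64 kb near Asmt and 3 in a stretch of 38.99 kb at Mid1. The X share thus rests largely on these stretches and is not a trait of the whole chromosome.

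**Figure D1:**
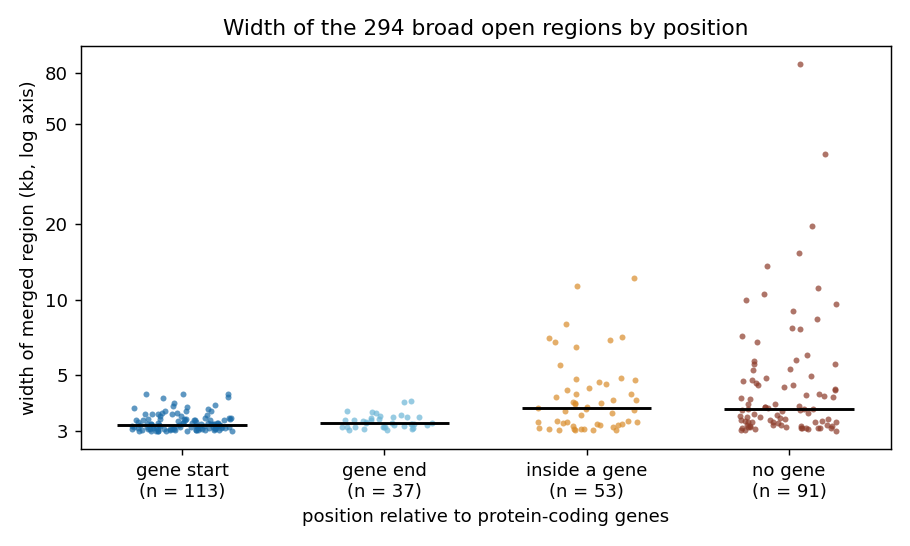
Width in kb (log axis) of each of the 294 regions (points) by position relative to protein-coding genes, with the median as a bar. Regions at gene starts and gene ends stop at 4225 and 3946 bp, and all 31 regions of 5000 bp or more lie inside genes or at no protein-coding gene.

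Library values differed mainly between adults and Embryo. Adult lists held 69026 to 87910 intervals, of which 25 to 58 were 3000 bp or wider, and Embryo lists held 24902 and 14255, of which 69 and 81 were. No source used here gives read numbers, and the depth is unknown. The broad regions took 1.26 to 1.54% of covered bp in the adult libraries, and 4.09% and 7.55% in Embryo. Their covered length itself was lower in Embryo, at 629551 and 620556 bp against 655548 to 853305 bp in adults. The Embryo totals over all regions were 15.4 and 8.22 Mb, against 52.0 to 62.8 Mb in adults, and Embryo intervals helped to set which regions were broad. Of 9 esophageal epithelial marker genes, 7 or 8 had an interval at a gene end in each adult library, and 4 and 2 in Embryo; of 6 embryonic foregut markers, 4 and 5 did in Embryo and 1 to 4 in adults. Endothelial markers had none of 7 in any library, muscle markers 2 or 3 of 6 in adults and 0 in Embryo, and Merkel cell and melanocyte markers 2 to 4 of 5 in adults and 3 and 1 in Embryo. No broad region touched a marker gene of any list.

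**Figure D2:**
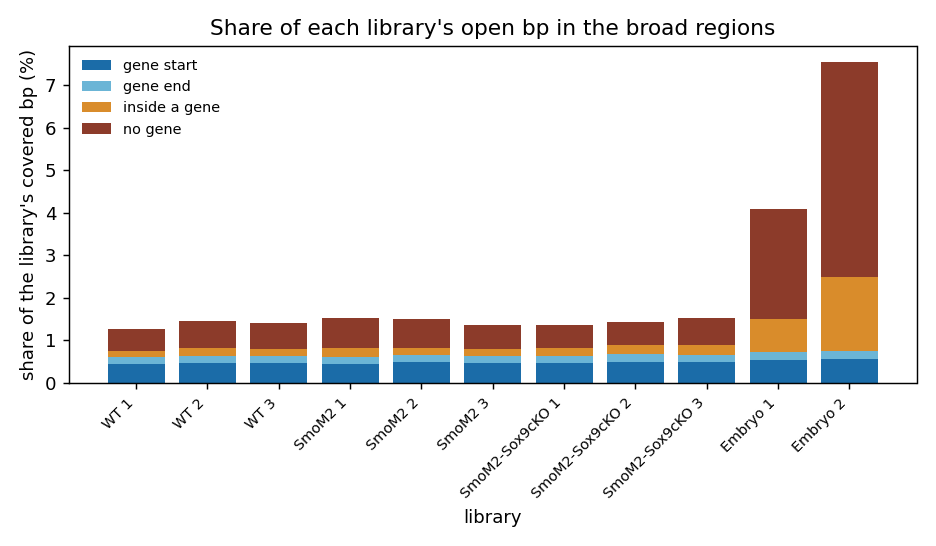
Share of each library's covered bp (%) that lies in the broad regions, stacked by position. The 9 adult bars lie between 1.26 and 1.54%, and the Embryo bars reach 4.09 and 7.55%, mostly from regions inside genes or at no protein-coding gene. In bp, both Embryo libraries had less in the broad regions than any adult library (629551 and 620556 against 655548 to 853305 bp).

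Covered shares in Embryo are given here by position, without a reading of the contrast, because Embryo intervals helped to choose the regions. All 150 regions at a start or gene end were open in 9 of 9 adult libraries, and in 0 of the 150 was the Embryo mean above the adult mean. A median of 73.2% of the width was covered in adults at starts and 77.3% at gene ends, against 17.2% and 20.7% in Embryo. Inside genes the medians were 58.1% in adults and 60.9% in Embryo, and at no gene 51.4% and 79.5%. The Embryo mean was above the adult mean in 27 of 53 regions inside genes and 60 of 91 at no gene. Of these 87 regions, 32 were 3000 bp wide only with the Embryo lists and 55 also without them. Both Embryo libraries were below every adult library in 187 of the 294 (63.6%), against 32.7% of all regions and 86.9% of those between 2 and 3 kb wide. Both exceeded every adult library in 40 (13.6%), against 0.700% and 1.98%. Embryo intervals helped to set the widths, so these shares and the counts by position follow in part from the choice of members and nothing is read from them. Of the 40 regions above all adults, 24 were 3000 bp wide only with the Embryo lists and 16 also without them. List length and stage move together in this contrast and cannot be told apart, and no test was made.

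**Figure D3:**
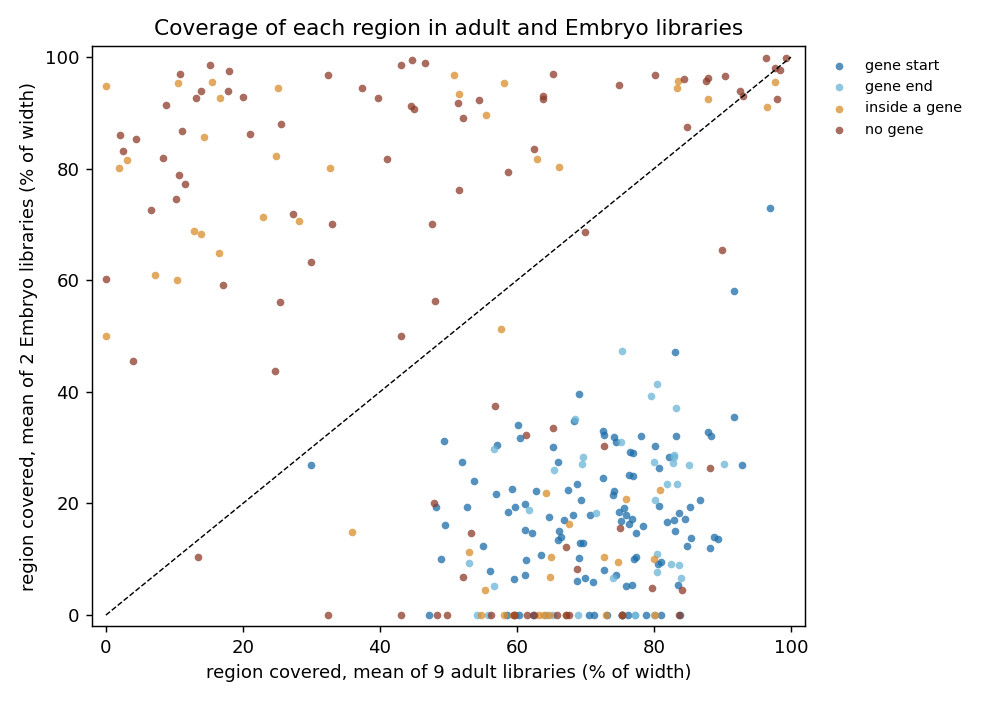
Each point is 1 of the 294 regions, at the percent of its width covered in adult libraries (mean of 9, x axis) and in Embryo libraries (mean of 2, y axis), coloured by position; the dashed line marks equality. Points for starts and gene ends all lie below the line, whereas 27 and 60 regions inside genes and at no protein-coding gene lie above it. Of these 87, 32 reached 3000 bp only with the Embryo lists, so the contrast follows in part from the choice of regions.

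The Embryo intervals helped to set which regions were broad. With only the 9 adult lists merged, 256 regions reached 3000 bp, and 40 of the 294 were lost, 36 of them without a start. The widest of the 40 lay inside Ulk4, a kinase-like gene on chromosome 9 (chr9:121223072-121234414, 11343 bp). Its covered length was 6888 and 11285 bp in Embryo, and 0, 622 and 0 bp in WT, 602, 0 and 0 bp in SmoM2 and 660, 0 and 0 bp in SmoM2-Sox9cKO. Since the region was a member only through its Embryo intervals, the higher Embryo values are not read as a difference. A second Ulk4 region (4442 bp) began 246 bp further on and had 3151 and 4100 bp in Embryo, with at most 944 bp in any adult library.

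A set of 3 neighboring genes of the epidermal differentiation complex held broad regions inside the gene bodies: Flg2 (12238 bp), Flg (6910 bp) and Hrnr (6489 bp), which encode filaggrin-family proteins of the cornified layer built from long tandem repeats. At Flg2 covered length was 0, 1998 and 0 bp in WT, 3990, 0 and 0 bp in SmoM2, 4422, 5991 and 8877 bp in SmoM2-Sox9cKO, and 7498 and 9980 bp in Embryo. All SmoM2-Sox9cKO values were above all WT and SmoM2 values, yet neither difference passed the test (adjusted p = 0.0527 against WT and 0.217 against SmoM2 by limma). At Flg it was 3126 and 6379 bp in Embryo and 0 bp in 5 of 9 adult libraries, with 4631 bp in 1 SmoM2 library; this region, too, was a member only through its Embryo intervals. Another repeat-bearing gene, Ahnak2, had 6024 and 7188 bp in Embryo and 0 to 5718 bp in adults.

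The widest region of all was the cluster of 5S ribosomal RNA genes on chromosome 8 (chr8:123537412-123624213, 86802 bp), transcribed by RNA polymerase III. It held 48 of the 63 rRNA genes of the RefSeq table and lay 755 bp from the nearest protein-coding gene, Gas8. Covered length was 80551, 83946 and 85393 bp in WT, 84094, 85788 and 86130 bp in SmoM2, 86135, 86716 and 86802 bp in SmoM2-Sox9cKO, and 80995 and 79614 bp in Embryo. MACS2 intervals thus lay over nearly the whole array in every library. Repeat content, mappability and copy number were not examined, here or at the other very wide regions below, so covered length there is the length called and not a measure of how many copies were open. The array held a mean of 113.9 summits per adult library and 107.5 in Embryo. A chromosome 17 region over the rRNA-related Rn18s-rs5 and AY036118 (chr17:39843034-39848708, 5675 bp) had 4931 to 5670 bp in adults and 5551 and 5568 bp in Embryo.

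Transfer RNA genes were also present. Broad regions overlapped tRNA genes in 8 cases (2.72%, against 0.112% of all regions and 0.700% of those between 2 and 3 kb wide) and together held 19 of 408 tRNA genes. All but 1 were open in all 11 libraries. The widest (3819 bp) held 3 tRNA genes and the starts of Ang and Rnase4, ribonuclease genes. It had 2472, 3142 and 3238 bp in WT, 2860, 2481 and 3335 bp in SmoM2, 3003, 2134 and 3159 bp in SmoM2-Sox9cKO and 580 and 707 bp in Embryo. The adult groups overlapped, and both Embryo values were below them. The exception, a region with 1 tRNA gene at Btn1a1, was open in 9 of 9 adult libraries and listed at 0 in both Embryo libraries.

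A region of 3082 bp on chromosome 6, 95 bp from Phb2, covered the genes of 2 miRNAs of epithelial cells, Mir200c and Mir141, which repress the mesenchymal factors Zeb1 and Zeb2. Their 3p mature sequences, from RefSeq, are shown with the seed (bases 2 to 8) in capitals.
mmu-miR-200c-3p, chr6:124718324-124718346, minus strand: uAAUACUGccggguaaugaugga
mmu-miR-141-3p, chr6:124717917-124717938, minus strand: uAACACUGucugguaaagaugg
The 2 seeds are not identical. Covered length at this region was 2133, 2096 and 2094 bp in WT, 2073, 2572 and 2300 bp in SmoM2, 1930, 1666 and 1760 bp in SmoM2-Sox9cKO, and 747 and 0 bp in Embryo. The SmoM2-Sox9cKO libraries lay below all other adult libraries, but the log2 change against SmoM2 was -0.30 ± 0.11 (SE) with an adjusted p of 0.289 by limma.

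Other very wide regions carried little annotation, and the same limit holds for them. One of 38172 bp at the start of the assembled chromosome 9 (chr9:3000048-3038219) had 34038 to 38172 bp in every library and a mean of 87.7 summits in adults. A region of 19675 bp, 8511 bp from Apba2, had 3979 to 15999 bp in adults and 13436 and 17832 bp in Embryo. One of 15292 bp on X, 31665 bp from Zmat1, had 8448 to 15292 bp in adults and 14969 and 14331 bp in Embryo. Tmem267 held one of 7040 bp with 6360 to 7001 bp in all 11 libraries. In 10 regions, among them those at the 5S array, on chromosome 9 and at Rn18s-rs5 and Tmem267, all 9 adult libraries had a single interval of at least 3000 bp. Another, a 7181 bp region on chromosome 10, was all or nothing: 6885 bp in WT replicate 2, 7181 and 6881 bp in SmoM2 replicates 2 and 3, and 0 bp in the other 8 libraries.

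Summits, the local maxima that MACS2 marks inside an interval, were counted per region. The median over the broad regions was 4.17 per adult library, against 2.89 for regions between 2 and 3 kb wide and 0.667 over all regions. Starts had a median of 4.56 and gene ends 4.78, with about 510 and 508 bp of covered length per summit. Regions inside genes had 3.11 and those at no gene 3.00, with 686 and 700 bp per summit. Ranked within each library by the authors' p-value, the strongest interval of a start region stood at a median percentile of 72.4, and that of a region at no gene at 48.2.

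Few genes of any kind held a broad region. Of 286 genes in the pathway lists, 8 were touched (2.80%), against 1.04% of all 21631 protein-coding genes. With a share that low, a list of this length often holds none: none of 25 squamous and basal identity genes, 22 squamous differentiation genes, 18 hair follicle genes, 26 housekeeping genes or 16 Notch genes was. Those described here were Gas1 among 22 Hedgehog genes, Fzd10, a Wnt receptor, among 30 Wnt genes, Tgfb1 among 24 BMP and TGF-beta genes, Klf10 among 30 immediate early genes, Cdk6 and E2f3 among 27 cell cycle genes, and Kmt2a among 26 chromatin genes. No region at these genes passed the test in any adult comparison.

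At Gas1 covered length was 2210, 2780 and 2524 bp in WT, 2473, 2722 and 2933 bp in SmoM2, 2688, 2779 and 2647 bp in SmoM2-Sox9cKO, and 845 and 354 bp in Embryo. The adult groups overlapped throughout. At Fzd10 it was 2830, 2884 and 2983 bp in WT, 2281, 1901 and 2774 bp in SmoM2, 2510, 3024 and 2523 bp in SmoM2-Sox9cKO and 0 bp in both Embryo libraries. SmoM2 lay below WT there without passing the test (log2 change -0.32 ± 0.13 SE, adjusted p = 0.101 by limma). At Tgfb1 it was 1616, 2376 and 2405 bp in WT, 2312, 2074 and 2834 bp in SmoM2, and 3117, 2557 and 2683 bp in SmoM2-Sox9cKO, whose change against WT had an adjusted p of 0.0584.

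The region at Cdk6, 3596 bp wide, had 2722 to 3526 bp in the adult libraries, and that at E2f3 had 1606 to 2971 bp. Klf10 had 2145 to 3384 bp and Kmt2a 1698 to 2928 bp. In all 4 the lowest adult value exceeded both Embryo values. Among 10 transcription factor families with 176 genes, 5 genes held a broad region (2.84%): Foxo1, Foxp1, Hoxc4, Irf5 and Klf10. None of 80 ribosomal protein genes and none of 19 Sox genes did. Of 397 Zfp genes 3 did (0.756%).

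For the adult groups, covered length was tested with limma on log2((bp + 300) / total covered bp of the library), over 88868 regions open in at least 3 of 9 adult libraries. The filter kept 279 of the 294, and the other 15 have no test. Changes are on this log2 scale, and a covered length cannot exceed the region's width, which limits how far a broad region can rise. In SmoM2 against WT, 12 were higher and 13 lower at a Benjamini-Hochberg adjusted p under 0.05. Over all regions tested, 12.7% were higher, 9.31% lower and 22% either, so the broad regions' 8.96% was under the background. That is not particular to them: 6.7% were higher and 7.97% lower between 2 and 3 kb, against 15% and 9.37% under 1000 bp. The groups did not overlap in 66 of 279, against 36.3% of all regions. At an unadjusted p under 0.05, 30 were higher and 29 lower, against 17.4% and 15.7% of all regions. With scaling by the median ratio in place of total covered bp, 23 were higher and 11 lower, against 14.4% and 8.02% of all.

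Tril, which encodes a co-receptor of Toll-like receptor signaling, had the largest fall. Its start region had 1738, 2569 and 2663 bp in WT, 393, 496 and 508 bp in SmoM2, 1935, 1309 and 1224 bp in SmoM2-Sox9cKO, and 0 bp in both Embryo libraries. SmoM2 libraries were below all other adult libraries. The mean fell from 2323 ± 509 bp (SD, n = 3) in WT to 466 ± 63.2 bp in SmoM2, with a log2 change of -1.78 ± 0.13 (SE, limma adjusted p = 3.45e-05).

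Among the other regions lower in SmoM2 that kept their call when any 1 library was left out was Mpped2, a metallophosphoesterase gene. Covered length there was 2754, 2408 and 2043 bp in WT and 1119, 958 and 1147 bp in SmoM2, without overlap, and the log2 change was -0.99 ± 0.20 (adjusted p = 0.00489). At Thbd, the gene of the anticoagulant receptor thrombomodulin, it was 3067, 2936 and 3397 bp in WT and 2174, 2167 and 2244 bp in SmoM2 (log2 change -0.48 ± 0.10, adjusted p = 0.00766). Inside Ankrd44, which encodes a phosphatase subunit, it was 2408, 2168 and 2645 bp against 1349, 1076 and 1711 bp (log2 change -0.73 ± 0.10, adjusted p = 0.000789). Regions in Slc25a21, a mitochondrial carrier gene, at Gng5 and Spata1, at C1qtnf1 and on chromosome 13 (chr13:3358670-3361815) fell as well, by 0.43 to 0.72 on the log2 scale. The calls at Mpped2, Thbd, Slc25a21, C1qtnf1 and on chromosome 13 were lost with stricter intervals and with summits. At Mpped2 the change was -0.242 (adjusted p = 0.883) with stricter intervals, and at Thbd -0.351 (0.142). The chromosome 13 call was also lost with intervals at Y-linked genes as a covariate in limma (adjusted p = 0.0867). That region was a member only through its Embryo intervals.

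Cmc1, which encodes a mitochondrial factor for assembly of cytochrome c oxidase, had the largest rise, at a region inside the gene (chr9:118087982-118092818, 4837 bp). It had 0, 0 and 359 bp in WT, 4338, 3448 and 3651 bp in SmoM2, 4358, 4481 and 4647 bp in SmoM2-Sox9cKO, and 4525 and 4708 bp in Embryo. It was nearly closed in WT and covered over most of its width in the other 8 libraries. The log2 change was 3.37 ± 0.25 (SE, adjusted p = 3.45e-05) in SmoM2 and 3.62 ± 0.25 (adjusted p = 2.86e-05) in SmoM2-Sox9cKO, both against WT. With WT at or near 0, these fitted values depend on the pseudocount; the means were 120 ± 207 bp in WT and 3812 ± 466 bp in SmoM2 (SD, n = 3 each), a ratio of 31.9.

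Inside Nrp2, the gene of a semaphorin and VEGF co-receptor, covered length was 1487, 1476 and 1578 bp in WT, 2838, 2635 and 2791 bp in SmoM2, 2939, 2870 and 2366 bp in SmoM2-Sox9cKO and 0 bp in both Embryo libraries. Neither SmoM2 group overlapped WT, and the log2 change was 0.73 ± 0.10 in each (adjusted p = 0.000768 and 0.000928). At the start of Slc16a11, a monocarboxylate transporter family gene, WT had 1329, 1441 and 1491 bp and SmoM2 2394, 2502 and 2829 bp (log2 change 0.72 ± 0.09, adjusted p = 0.000536). At Phf21a, which encodes a reader of unmethylated histone H3, WT had 1181, 1805 and 1775 bp and SmoM2 2290, 2269 and 2731 bp (log2 change 0.52 ± 0.12, adjusted p = 0.00903); counted in summits, the change was -0.063. At the shared starts of Cdc42se1, a Cdc42 effector gene, and Mllt11, WT had 1483, 1697 and 1531 bp and SmoM2 2032, 2147 and 2657 bp (log2 change 0.44 ± 0.09, adjusted p = 0.00621). The call at Cdc42se1 was lost with stricter intervals (adjusted p = 0.157) and with summits (0.614), and that at Slc16a11 with summits (0.165).

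Higher regions far from protein-coding genes included one on chromosome 3 over the lncRNA gene Gm35425 (chr3:35318172-35321347). It had 1127, 1948 and 1405 bp in WT, 2858, 2687 and 2557 bp in SmoM2, 3137, 2952 and 2846 bp in SmoM2-Sox9cKO, and 0 bp in Embryo, so both SmoM2 groups lay above WT. One 86085 bp from Slc44a1 rose by 1.26 ± 0.31 on the log2 scale, and one on chromosome 1 (chr1:101103649-101108508) had 0 bp in every WT library and 1752, 241 and 1179 bp in SmoM2. With stricter intervals the change of the chromosome 1 region was -0.057, and with summits the calls near Slc44a1 and on chromosome 3 were lost (adjusted p = 0.137 and 0.176). The chromosome 1 region was a member only through its Embryo intervals. Intervals at Y-linked genes were unbalanced in this comparison, with 5, 0 and 0 in WT and 9 in each SmoM2 library. With their presence as a covariate in limma, the calls near Slc44a1 and on chromosome 1 were lost (adjusted p = 0.0612 and 0.075). The calls at 16 of the 25 regions held when any 1 of the 9 adult libraries was left out. The other 9, at Kif5c, Tns3, Itm2b, Mia2, Gja1, Trim29, Rexo2, Sbk1 and on chromosome 13 (chr13:75541308-75544942), were lost in 1 to 8 of the 9 such fits. Those at Kif5c, Tns3, Mia2, Gja1, Trim29, Rexo2 and Sbk1 were also lost with Y-linked intervals as a covariate.

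**Figure D4:**
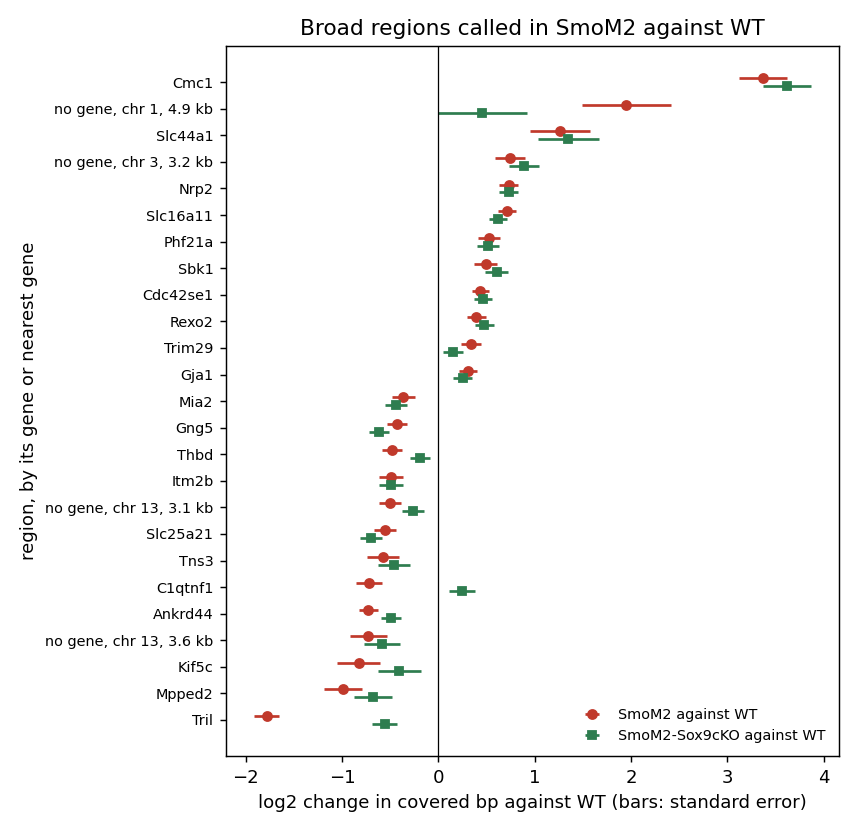
Log2 change in covered bp against WT, with standard errors, of the 25 regions called in SmoM2 against WT (circles), and the same regions in SmoM2-Sox9cKO against WT (squares). Both comparisons use the same WT libraries. Cmc1 is highest at 3.37 and Tril lowest at -1.78.

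Few broad regions differed between the SmoM2 groups with and without floxed Sox9. In SmoM2-Sox9cKO against SmoM2, 4 were higher and 5 lower, 3.23% of the 279 against 2.38% of all regions (0.906% higher, 1.48% lower). Of the broad regions tested, 1.43% were higher and 1.79% lower. Between 2 and 3 kb wide, 1.14% were higher and 0.185% lower, and under 1000 bp 0.871% and 1.99%. Most of the broad regions' lower calls lay in a single stretch of X, described below. At an unadjusted p under 0.05, 24 were higher and 15 lower, against 5.99% and 6.04% of all regions, and the groups did not overlap in 38 of 279, against 15% of all regions. The 4 higher regions lay at Tril, at C1qtnf1, inside Arl15 and 790 bp from Gcnt2.

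At Tril the mean rose from 466 ± 63.2 bp in SmoM2 to 1489 ± 388 bp in SmoM2-Sox9cKO (SD, n = 3 each), with a log2 change of 1.23 ± 0.13 (SE, adjusted p = 0.00523 by limma). At C1qtnf1, which encodes a secreted C1q and TNF-related protein, covered length was 1767, 1947 and 2121 bp in WT, 956, 815 and 1572 bp in SmoM2, and 2381, 2122 and 2594 bp in SmoM2-Sox9cKO. SmoM2 lay below both other groups, and the log2 change in SmoM2-Sox9cKO against SmoM2 was 0.97 ± 0.13 (adjusted p = 0.00952). Beside Gcnt2, a gene of a glycan-branching enzyme, all WT libraries had 0 bp, SmoM2 had 0, 0 and 330 bp, and SmoM2-Sox9cKO had 1088, 1220 and 2526 bp (log2 change 2.26 ± 0.35, adjusted p = 0.0129). Inside Arl15, a small GTPase gene, WT had 0, 1009 and 2093 bp, SmoM2 0 bp throughout, and SmoM2-Sox9cKO 2078, 2243 and 3232 bp (adjusted p = 0.0199). That call was lost without any 1 of the SmoM2 libraries or without SmoM2-Sox9cKO replicate 3, where adjusted p reached 0.0802. None of the 4 calls held with summits (adjusted p = 0.318 at Tril, 0.243 at C1qtnf1, 0.284 near Gcnt2 and 0.156 at Arl15). Those at C1qtnf1, Gcnt2 and Arl15 were also lost with stricter intervals (adjusted p = 0.329, 0.794 and 0.511), those at Tril and Arl15 with lists of equal length (0.125 and 0.419), and those at C1qtnf1 and Gcnt2 with only the 6 libraries compared (0.0513 and 0.0521).

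Of the 5 lower regions, 4 lay in a 134.64 kb stretch near the distal end of X, beginning 55005 bp from Asmt, a gene of melatonin synthesis. It held 8 broad regions with a summed width of 43768 bp, the largest such group. The widest (chrX:170809260-170820410, 11151 bp) had 8246, 2961 and 9080 bp in WT, 9175, 3887 and 9894 bp in SmoM2, 0 bp in all 3 SmoM2-Sox9cKO libraries, and 10987 and 10992 bp in Embryo. The next (7713 bp) had 4190, 2815 and 6266 bp in WT, 4832, 3417 and 5485 bp in SmoM2, 0, 533 and 0 bp in SmoM2-Sox9cKO, and 7713 and 6589 bp in Embryo. These regions were thus open in WT, SmoM2 and Embryo and almost empty in the SmoM2-Sox9cKO libraries. Limma gave adjusted p-values of 0.00359 and 0.00545; the fitted change of the first depends on the pseudocount, since its libraries are listed at 0.

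Intervals at 4 Y-linked genes numbered 5, 0 and 0 in WT, 9 in each SmoM2 library, 8, 10 and 0 in SmoM2-Sox9cKO, and 0 in Embryo. In SmoM2-Sox9cKO replicate 3, which had none, the 4 called X regions near Asmt had 0 bp; in replicates 1 and 2 they had 0 to 533 bp. Adjusted p stayed under 0.05 at these 4 with Y-linked intervals as a covariate. Whether sex bears on these regions was not tested, and nothing about it is read from that fit. Repeat content, mappability, copy number and any matching sequence on chromosome Y were not examined for this stretch. Its values are therefore not read as belonging to X alone. The 2 narrower ones lost their calls with stricter intervals (adjusted p = 0.375 and 0.892). Of the 8 broad regions in the stretch, those of 4369, 5561 and 3247 bp were 3000 bp wide only with the Embryo lists. The one of 4369 bp was among the 4 called. Strain and genotype of the SmoM2-Sox9cKO libraries cannot be told apart. The fifth lower region (chr13:120027800-120033815, 6016 bp) had 5684, 5981 and 5927 bp in WT, 3280, 5372 and 5927 bp in SmoM2 and 0, 1844 and 499 bp in SmoM2-Sox9cKO. Its adjusted p was 0.0462, and it was lost in 7 of the 9 fits with 1 library left out, holding only without SmoM2-Sox9cKO replicate 1 or 2 (adjusted p from 0.0135 to 0.152). That call was also lost with Y-linked intervals as a covariate in limma (adjusted p = 0.0968).

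**Figure D5:**
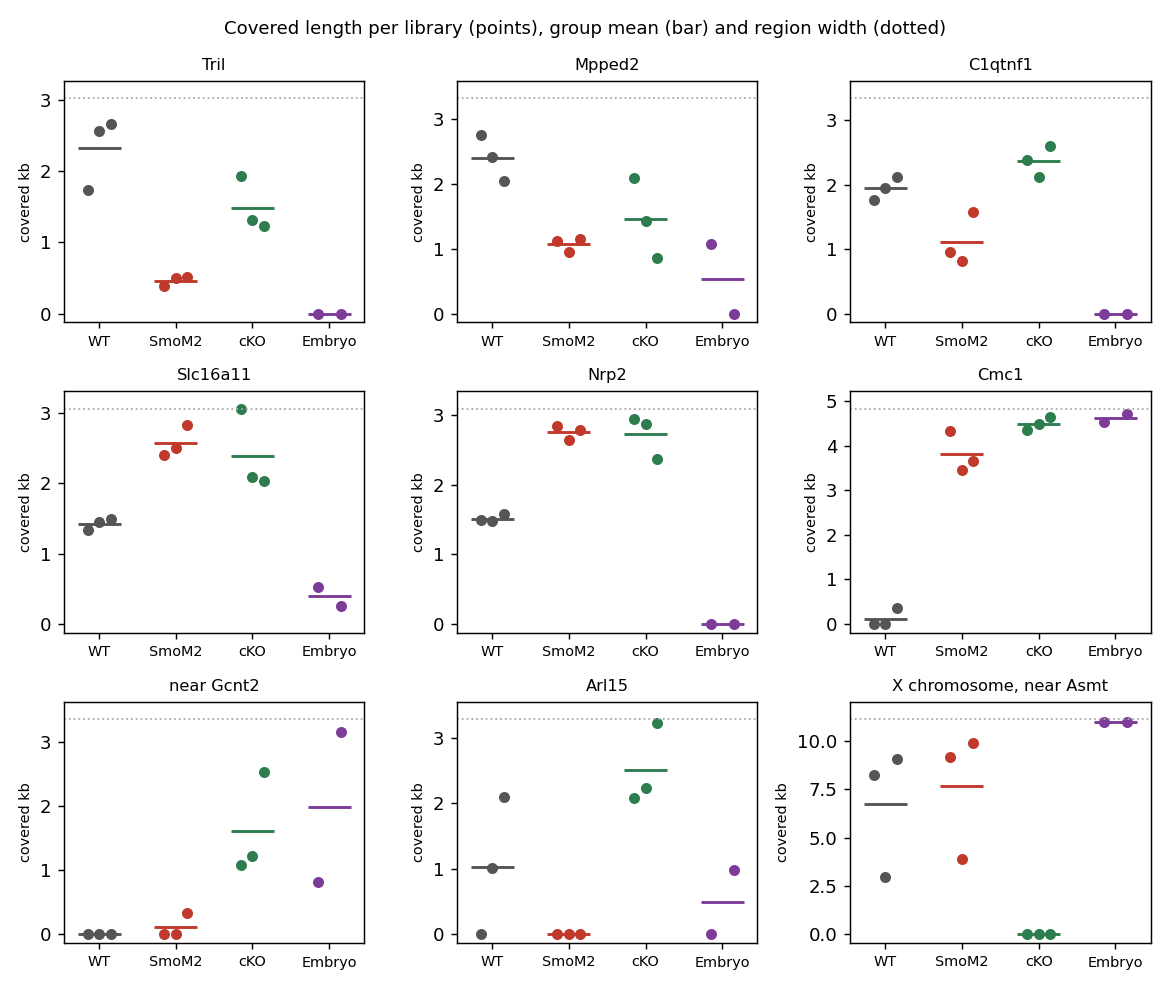
Covered length in kb per library (points), with the group mean (bar) and the region's width (dotted line), for 9 regions called in an adult comparison; cKO stands for SmoM2-Sox9cKO. Tril is lowest among adults in SmoM2 (393 to 508 bp), Cmc1 is nearly empty only in WT, and the X region near Asmt has 0 bp in all SmoM2-Sox9cKO libraries.

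SmoM2-Sox9cKO against WT gave 16 higher and 14 lower regions, 10.8% of the 279 against 15.1% of all regions (8.64% higher, 6.48% lower). Between 2 and 3 kb wide, 6.92% were higher and 4.01% lower. The groups did not overlap in 58 of 279, against 30% of all. This comparison shares its WT libraries with that of SmoM2 against WT. At Tril SmoM2-Sox9cKO was also below WT (log2 change -0.56 ± 0.13, adjusted p = 0.0161), though the groups overlapped, and the call was lost without WT replicate 2 or 3 or SmoM2-Sox9cKO replicate 2 or 3 (adjusted p up to 0.0626). At Foxo1, a forkhead factor gene, WT had 1761, 2526 and 1921 bp, SmoM2 2171, 3077 and 3224 bp and SmoM2-Sox9cKO 3220, 3218 and 3214 bp. SmoM2-Sox9cKO lay above WT there (log2 change 0.58 ± 0.15, adjusted p = 0.0272), a call lost without WT replicate 1 or 3 or SmoM2-Sox9cKO replicate 2 or 3 (adjusted p up to 0.111).

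Near Esx1, an X-linked homeobox gene, a region of 4729 bp over several pseudogenes had 4366, 4611 and 4729 bp in WT, 3804, 2338 and 0 bp in SmoM2, and 0, 0 and 583 bp in SmoM2-Sox9cKO. SmoM2-Sox9cKO lay below WT (adjusted p = 0.0195), a call lost without WT replicate 1 or SmoM2-Sox9cKO replicate 1 or 2 (adjusted p up to 0.0766). Inside Snx9, an endocytosis gene, WT had 0 bp throughout and SmoM2-Sox9cKO 1432, 311 and 3067 bp (adjusted p = 0.0172, and 0.0527 without SmoM2-Sox9cKO replicate 1). The Snx9 region was a member only through its Embryo intervals. With stricter intervals the calls at Snx9 and Foxo1 were lost (adjusted p = 0.5 and 0.0673), and with summits those at Foxo1 and Esx1 (0.765 and 0.136). In this comparison 16 of the 30 calls held in all 9 fits with 1 library left out, and without SmoM2-Sox9cKO replicate 2 only 10 higher and 9 lower were called. The fitted spread could not be used for the 5S array and the chromosome 9 region of 38172 bp, whose means lie far beyond those of other regions. For these, only the values above are given. The fitted SE was also far above the SE from the region's own spread near Zmat1 (0.934 against 0.195) and at Tmem267 (0.246 against 0.0798). A call was thus harder to reach there. All of these regions are counted among the 279 tested.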

How the data were processed

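ATAC-seq interval lists of 11 libraries in 4 groups were analysed. Per the submitters' processing notes, the tools were Trimmomatic, Bowtie2, Picard, MACS2 and deepTools, with GRCm38/mm10; no version or setting is recorded in what was used here. The fold enrichment, the −log10 p and −log10 q values, and the score of each interval were deposited by the authors from MACS2; the score and fold were not used. Lines repeating an interval were counted as summits. Intervals were merged and covered bp summed in Python 3.11.15 with pandas; annotation came from the RefSeq tables of GRCm38.p6 (21631 protein-coding genes, 17274 of them with a listed start). Covered bp was tested with limma 3.58.1 in R 4.3.3 (trend on, not robust, pseudocount 300 bp, the adult groups fitted together, p-values adjusted by Benjamini-Hochberg per comparison). Embryo was described without a test. On simulated data for SmoM2 against WT over 88868 regions, limma found 64 of 100 regions with a simulated 2-fold change and 89 of 100 with a 4-fold change, beside 9 false calls. Changed regions were drawn from those above the median value, with normal noise and no upper limit from a region's width. Far fewer regions were changed than were called in the data, so these figures do not carry over to the broad regions. Depth is unknown, which leaves the precision of single values unknown. Named regions are the widest, those with most summits, the largest non-overlapping changes, those at list genes, those extreme in Embryo, and those at the limit of 3000 bp; other regions named were picked after their values were seen. One result is not reported here. The members and lists were chosen with earlier results of these data known. Alternatives covered the pseudocount, filter, scaling, stricter intervals, lists of equal length, summits, Y-linked intervals, a replicate block, the 6 libraries compared, each library left out, and no variance trend, the last added after seeing the data.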

Additional observations from a re-analysis of the deposited data

Results flagged for a closer look

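Chromosome Y lies outside the regions analysed. Its intervals of 3000 bp or more numbered 3 in Embryo replicate 1 and 4 in Embryo replicate 2, above the most seen in a WT library (2), while neither Embryo library had an interval at the 4 Y-linked genes examined.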

How the results depend on the processing

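The number of broad regions was 978 at a limit of 2500 bp, 62 at 4000 bp, 152 where a single interval had to reach 3000 bp, and 263 to 289 with 1 library left out. The share of midpoints within 1 kb of a gene end exceeded that of all regions by 19.3 percentage points; the excess was 34.9 points for any base on a gene end and 28.3 points within 5 kb, and -11.4 points, a reversal, against regions between 2 and 3 kb wide. For SmoM2 against WT, 24 regions were higher with a pseudocount of 1000 bp, 23 with scaling by the median ratio, 21 with Y-linked intervals as a covariate and 5 with summits; 7 were lower with stricter intervals and 6 with summits. For SmoM2-Sox9cKO against SmoM2, 9 were higher and 9 lower with a pseudocount of 1000 bp, and higher ones numbered 1 with stricter intervals, 2 with lists of equal length, 0 with summits and 2 with only the 6 libraries compared. For SmoM2-Sox9cKO against WT, 28 were higher with a pseudocount of 1000 bp, 25 with Y-linked intervals as a covariate and 4 with summits; 9 were lower with stricter intervals and 8 with summits. With 1 of the 6 libraries compared left out, the ranges were 10 to 18 higher and 9 to 13 lower, 3 to 6 and 4 to 6, and 10 to 20 and 9 to 15; leaving out SmoM2-Sox9cKO replicate 1, which shares the fit, gave 16 lower in SmoM2 against WT. The cause of these shifts was not tested. Replicate numbers did not pair the libraries (correlations of their deviations from -0.037 to 0.068); with a replicate block 16 higher and 15 lower, 4 and 5, and 20 and 13 were called, while calls over all regions in SmoM2-Sox9cKO against SmoM2 fell to 279 higher and 351 lower, from 805 and 1311. Without the variance trend 9 and 10, 4 and 4, and 11 and 10 were called. Of 49 named changes, 11 kept direction and call in every alternative; 2 reversed, Phf21a to -0.063 with summits (adjusted p = 0.885) and the chromosome 1 region to -0.057 with stricter intervals (adjusted p = 0.842), both SmoM2 against WT.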
